A study of Homo sapiens with 8 samples.

Results

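The collagen and integrin genes of 4 human cancer cell lines were followed with and without interferon-gamma (IFN-gamma). Members were taken by symbol from the deposited count table, as every gene named COL, a number, A and a number, or ITGA or ITGB followed by its subunit, with the binding proteins ITGB1BP and ITGB3BP left out. Rows of 1 symbol were summed. This gave 71 genes, 44 collagens and 27 integrin symbols, of 24462 symbols in all. One of the 27, ITGBL1, encodes an integrin-like protein that is no subunit. The IFN-gamma group held 4 libraries, 1 each from the lung cancer lines labelled 549 and H1703, the skin line A375 and the kidney line A498, grown in RPMI with 10% serum and given 20 ng/ml of the recombinant human cytokine over 72 hours. The untreated group held 1 library of each of the same lines in the same medium. All 8 libraries are of established lines, and no replicate culture of a line is named. The 4 lines therefore stand as replicates, and p-values measure the spread of a difference between lines.

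Collagens are the main structural proteins of the extracellular matrix. Each molecule is a triple helix of alpha chains, so a type that needs different chains needs each of their genes. Integrins are receptors made of 1 alpha and 1 beta subunit, which bind collagens, laminins, fibronectin or other cells and join them to the actin skeleton. IFN-gamma, a cytokine made by activated lymphocytes, is known to lower collagen synthesis in cultured fibroblasts.

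Total counts ran between 6559933 and 9291154 per library. Levels are given as TMM-scaled CPM, a gene's share of the counts of its library, and 3 counts correspond to between 0.335 and 0.474 CPM in the 8 libraries, so values near or below that are at the counting limit. The labels name a full-length and a 3' end kit, so CPM of different genes, summed or ranked below, are shares of counts and not expression levels per length. The labelled origins were checked against marker genes. A375 had the melanocyte lineage factor SOX10 at 532 CPM with IFN-gamma and 434 untreated. The melanocyte factor MITF was at 46.8 CPM with IFN-gamma and 389 untreated there. Of the other melanocyte markers, DCT and S100B had 83.4 and 101 CPM in untreated A375, while MLANA, PMEL and TYR were low, at 3.07, 2.20 and 1.98 CPM. A498 had the renal factor PAX8 at 278 CPM with IFN-gamma and 229 untreated. The line 549 had the keratin KRT7 at 1264 CPM with IFN-gamma and 795 CPM untreated, with the lung markers NKX2-1, SFTPB and SFTPC at 2 counts or fewer. H1703 had NKX2-1 at 12 counts in each library, KRT7 at 3 counts with IFN-gamma and 10 untreated, and PDGFRA at 807 CPM with IFN-gamma and 1135 untreated, so lung epithelial markers were low or absent there. CD3E and CDH5, which mark T cells and endothelium, were at 0 in all 8 libraries, but other leukocyte and endothelial markers were not. In A375 the endothelial marker KDR had 11 counts with IFN-gamma and 53 untreated, and the leukocyte marker PTPRC 7 and 33. The leukocyte marker CD14 had 5 counts with IFN-gamma and 32 untreated in 549, and CD68 lay between 4.76 and 97.7 CPM in the 8 libraries.

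A collagen or integrin gene was counted as expressed in an untreated line at 1 CPM or more. By this rule 549 expressed 22 of 44 collagens and 18 of 27 integrin symbols, A375 expressed 27 collagens and 19 integrins, A498 17 collagens and 18 integrins, and H1703 16 collagens and 12 integrins. Over all symbols of the table the share expressed lay between 54.7% and 57.1% in the 4 lines. In all 4 untreated lines 11 collagens and 10 integrins were expressed, 12 collagens and 7 integrins in 1 line alone, and 10 collagens and 2 integrins in none. The same counts over all symbols are not given here, so whether these are unusual was not tested. A375 alone accounted for 8 of the 12 collagens (COL1A2, COL2A1, COL6A3, COL9A2, COL15A1, COL16A1, COL19A1 and COL25A1) and for 4 of the 7 integrins (ITGA8, ITGA9, ITGA10 and ITGA11). The line 549 alone accounted for COL4A6, COL11A1, COL20A1, COL21A1, ITGA2B and ITGAM, and A498 alone for ITGB2. COL2A1, COL20A1, COL21A1, COL25A1, ITGAM and ITGB2 were between 1 and 2 CPM in that line, just inside the threshold. Among genes just outside it in every untreated line, COL17A1, a transmembrane collagen of hemidesmosomes, had 0.885 CPM in untreated A498 and COL24A1 0.885 CPM.

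**Figure D1:**
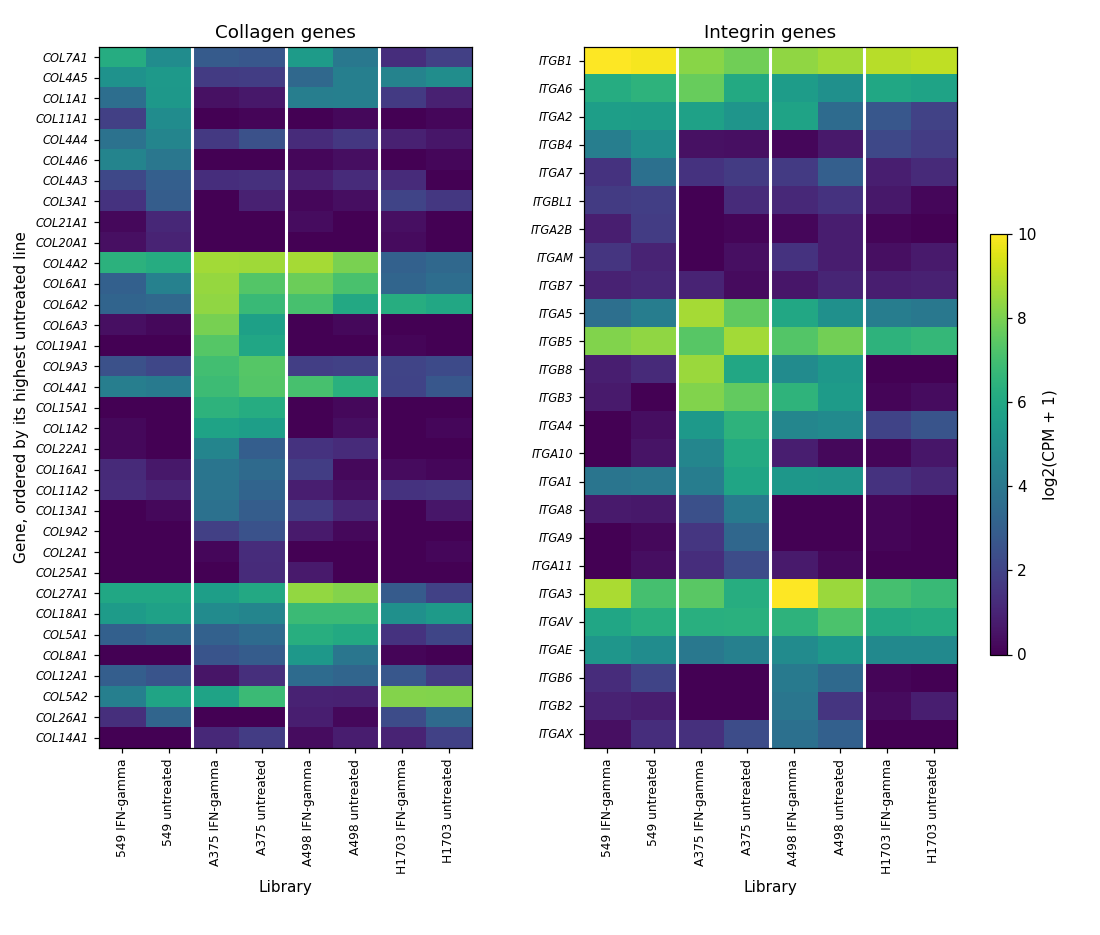
Heat map of log2(CPM + 1) for the 34 collagen genes (left) and 25 integrin genes (right) expressed in at least 1 untreated line. Columns are the 8 libraries, with the IFN-gamma library left of the untreated one for each line, and rows are ordered by the line with the highest untreated level. This order places genes that are bright in 1 line only side by side, most of them in A375, so the blocks themselves are no result. ITGB1, ITGB5, ITGA3 and ITGAV are bright in all 8 libraries.

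Of the 71 genes, 36 passed the filter on low counts and were tested, 20 collagens and 16 integrins. Passing needed enough counts in at least as many libraries as a treatment group holds. Genes well counted in A375 alone, such as COL6A3, COL15A1, COL19A1 and ITGA10, were therefore not tested, however many counts they had there. The level of a gene differed between lines for 19 of the 20 collagens and 14 of the 16 integrins (edgeR's quasi-likelihood F test of the cell line term, Benjamini-Hochberg adjusted over all 13457 genes tested). Among all genes tested, 56.3% differed between lines. The line term was not significant for COL4A3 (adjusted p = 0.0680), ITGAV (0.0720) and ITGAE (0.0753). The smallest values were those of COL9A3, with an adjusted p of 5.21e-06, and ITGB3, with 7.62e-06. A line is here represented by its treated and its untreated library together, which are not plain replicates.

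With IFN-gamma, 0 of 20 collagens and 0 of 16 integrins passed the test of treatment in edgeR's quasi-likelihood fit at an adjusted p of 0.05, while 1.92% of all genes tested did, 214 higher and 44 lower. At an unadjusted p under 0.05 there were 3 collagens (2 higher, 1 lower) and 6 integrins (3 higher, 3 lower), or 15% of the collagens and 37.5% of the integrins tested, against 21.1% of all genes tested. The difference between these shares was not tested. DESeq2 and limma-voom each called 1 of the 36 members, ITGA3, where DESeq2 called 8.01% of all genes and limma-voom 2.88%. Without the filter on low counts edgeR called ITGA3, COL6A3 and COL11A1, and 4.2% of all genes it then tested. The median log2 fold change was -0.05 over the collagens tested and -0.03 over the integrins tested, beside -0.02 over all genes tested. The collagen median depended on 549, and was 0.26 without that line. The fitted log2 fold change was above 0 for 9 collagens and below 0 for 11, and above 0 for 8 integrins and below 0 for 8, of which COL6A1, ITGB1 and ITGB6 turned below 0 with upper quartile scaling or library size alone. Single genes spread widely around those medians, from -1.21 to 1.24 among collagens and from -1.47 to 1.19 among integrins. The ratio of treated to untreated had the same sign in all 4 lines for 1 collagen (COL4A5, lower) and 6 integrins (ITGA2 and ITGA3 higher, ITGA4, ITGA7, ITGAV and ITGB5 lower), while 30.2% of all genes tested had 1 sign in all 4 lines. In bulk RNA, fewer cells that express a gene and less of its RNA per cell cannot be told apart.

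**Figure D2:**
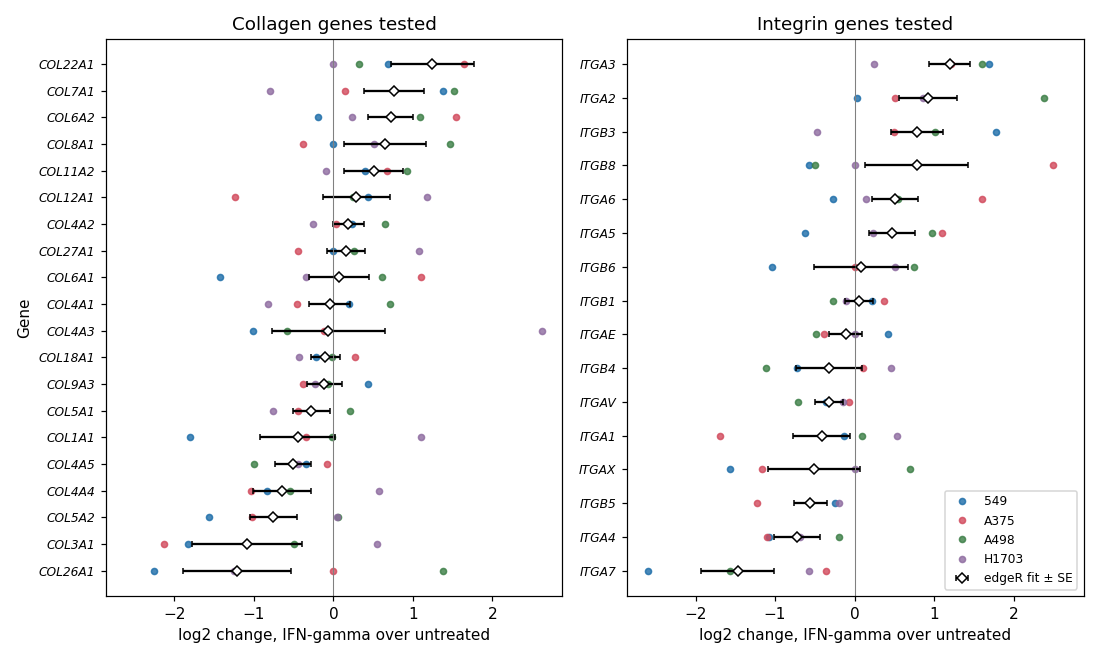
Log2 change, IFN-gamma over untreated, of the 20 collagens (left) and 16 integrins (right) tested. Diamonds are the edgeR estimates over 4 lines with their standard errors, and coloured points are the log2 ratios of the single lines (CPM with a prior count of 2). Points of 1 gene often lie on both sides of 0, as for COL6A1 and ITGB8, and ITGA2 and ITGA3 are the genes with all 4 points to the right of 0.

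Among the fibrillar collagens, which form the banded fibrils of connective tissue, 6 of 11 were tested, 2 had an estimate above 0 and 4 below. COL1A1, the main chain of type I collagen, had 11.2, 0.374, 18.6 and 2.23 CPM in IFN-gamma-treated 549, A375, A498 and H1703 cells, against 39.7, 0.549, 18.9 and 0.901 CPM in the untreated cells. Its partner chain COL1A2 had 0.158, 55.5, 0 and 0 CPM with IFN-gamma and 0, 47.5, 0.295 and 0.129 CPM untreated in those lines in that order. The chains of type I collagen were thus measured in different lines, COL1A1 in 549 and A498 and COL1A2 in A375, where COL1A1 had 3 counts with IFN-gamma and 5 untreated. In 549 the treated library held 0.282-fold (95% exact interval 0.214 to 0.368) the untreated level of COL1A1, an interval that covers counting error only, as do all intervals of a single line. COL3A1, the type III chain, had 1.74, 0, 0.133 and 3.13 CPM with IFN-gamma and 6.81, 0.878, 0.295 and 2.06 CPM untreated in 549, A375, A498 and H1703, and the fitted difference was -1.09 ± 0.69 on the log2 scale (edgeR adjusted p = 0.393).

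COL5A2, a chain of the type V collagen that starts fibrils, had the smallest p of any collagen. It had 18.8, 54.4, 0.929 and 283 CPM in IFN-gamma-treated 549, A375, A498 and H1703 cells, against 56.3, 111, 0.885 and 274 CPM in the untreated cells. It was lower with IFN-gamma in 549 and A375 and nearly level in H1703, the line where it was highest. The fitted log2 fold change of COL5A2 was -0.76 ± 0.30 with an edgeR adjusted p of 0.191. The other type V chain, COL5A1, was highest in A498 at 76.1 CPM with IFN-gamma and 65.8 untreated, the line with the least COL5A2. COL5A3 had 39 counts with IFN-gamma and 0 untreated in A375, an exact 95% interval for the ratio that begins at 11.4-fold, and 6 counts or fewer in every other library. COL11A1, a chain of cartilage type XI collagen, was lower in 549, the only line with more than 1 count of it: 17 counts with IFN-gamma and 194 untreated, or 0.0955-fold (95% exact interval 0.0545 to 0.157) the untreated level. It did not pass the filter on low counts. COL27A1, a fibrillar chain known from cartilage, was counted most in A498, with 61.7, 47.4, 334 and 6.25 CPM with IFN-gamma and 61.8, 64.9, 279 and 2.83 CPM untreated in 549, A375, A498 and H1703, and its fitted difference was 0.15 ± 0.24.

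The 6 genes of type IV collagen, the sheet-like collagen of basement membranes, lie in the genome as head-to-head pairs. RefSeq promoter windows, 250 bases before to 50 after a start site on GRCh38.p14, were found for 50 of the 71 symbols, as 67 windows; the deposited counts are on hg19, so the windows describe the genes and were not joined to the counts by position. The stretch that the windows of both genes of a pair share is shown, read on the + strand, because the genes of a pair are set side by side. For COL4A1 and COL4A2 it is chr13:110307108-110307333, with start sites 127 bases apart. For COL4A3 and COL4A4 it is chr2:227164374-227164455, with starts 419 bases apart, and for COL4A5 and COL4A6 it is chrX:108439588-108439708, with starts 380 bases apart. Capitals mark CCAAT (or ATTGG, its reverse complement) and GGGCGG (on either strand).
COL4A1 and COL4A2: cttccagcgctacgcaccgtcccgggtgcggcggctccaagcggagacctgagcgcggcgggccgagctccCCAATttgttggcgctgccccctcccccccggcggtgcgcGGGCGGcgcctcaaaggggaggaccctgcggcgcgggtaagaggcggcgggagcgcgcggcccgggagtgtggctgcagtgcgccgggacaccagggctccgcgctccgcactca
COL4A3 and COL4A4: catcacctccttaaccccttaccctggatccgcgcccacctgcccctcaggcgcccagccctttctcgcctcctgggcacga
COL4A5 and COL4A6: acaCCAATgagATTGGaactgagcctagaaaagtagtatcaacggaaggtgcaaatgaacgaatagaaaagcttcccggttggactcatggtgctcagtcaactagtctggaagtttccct
A whole window has 300 bases and the stretches shown are shorter, at 226, 82 and 121 bases in that order, so shares of windows do not apply to them. In whole windows, CCAAT occurs on either strand in 34.6% of all 35116 and in 18 of the 67 of members. GGGCGG occurs in 45% of all windows and in 36 of the 67. The COL4A1 and COL4A2 stretch holds 1 of each and is 76.5% G and C, that of COL4A3 and COL4A4 holds neither, and that of COL4A5 and COL4A6 holds 2 CCAAT matches in opposite directions. A match describes these letters and was not tested as a binding site.

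COL4A1 and COL4A2 stood in the same order across lines. COL4A1 had 18.6, 116, 133 and 3.01 CPM in IFN-gamma-treated 549, A375, A498 and H1703 cells, against 16.2, 160.1, 81.5 and 5.53 CPM in the untreated cells. COL4A2 had 84.6, 386, 399.8 and 7.70 CPM with IFN-gamma and 71.9, 377, 254 and 9.27 CPM untreated in those lines. Both were highest in untreated A375, then A498, 549 and H1703, and with IFN-gamma both were higher in A498 by log2 ratios of 0.71 and 0.65. Over the 4 lines the fitted differences were -0.05 ± 0.26 for COL4A1 and 0.19 ± 0.19 for COL4A2.

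The COL4A3 and COL4A4 pair, whose chains form the basement membrane of the kidney glomerulus and lung together with COL4A5, was highest in 549. COL4A4 had 12.5, 2.12, 1.33 and 0.893 CPM with IFN-gamma and 22.5, 4.61, 2.06 and 0.515 CPM untreated in 549, A375, A498 and H1703, and COL4A3 had 3.47, 1.50, 0.796 and 1.34 CPM with IFN-gamma and 7.25, 1.65, 1.33 and 0 CPM untreated. The fitted difference of COL4A4 was -0.64 ± 0.36 (edgeR adjusted p = 0.339). The COL4A5 and COL4A6 pair parted between lines. COL4A5 had 33.01, 2.37, 9.42 and 21.2 CPM in IFN-gamma-treated 549, A375, A498 and H1703 cells, against 41.9, 2.53, 19.2 and 28.96 CPM in the untreated cells, whereas COL4A6 had 139 counts with IFN-gamma and 101 untreated in 549 and 2 counts or fewer in every other library. COL4A5 was the single collagen tested that was lower with IFN-gamma in all 4 lines. Its fitted log2 fold change was -0.51 ± 0.22, and the edgeR adjusted p 0.239.

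The beaded filament collagens of type VI form microfibrils around cells, and the levels of their 3 common chains differed from line to line. COL6A1 had 7.26, 341, 212 and 8.59 CPM in IFN-gamma-treated 549, A375, A498 and H1703 cells, against 20.01, 159, 139 and 10.9 CPM in the untreated cells. COL6A2 had 8.21, 319, 137 and 74.3 CPM with IFN-gamma and 9.42, 109.8, 64.1 and 63.3 CPM untreated in those lines. COL6A3, the longest of the chains, had 1993 counts with IFN-gamma and 454 untreated in A375 and 2 counts or fewer in each of the other 6 libraries. All 3 chains were higher with IFN-gamma in A375, by 2.14-fold (95% exact interval 2.01 to 2.28) for COL6A1, 2.91-fold (95% exact interval 2.70 to 3.13) for COL6A2 and 4.99-fold (95% exact interval 4.50 to 5.53) for COL6A3. In 549, the COL6A1 level was lower, at 0.363-fold (95% exact interval 0.254 to 0.510) the untreated level. COL6A2 was higher in A375, A498 and H1703 and had a fitted difference of 0.72 ± 0.28 (edgeR adjusted p = 0.193), and COL6A1 one of 0.07 ± 0.38. COL6A5 and COL6A6 had 3 counts or fewer in every library.

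Of the 10 FACIT collagens, which sit on the surface of fibrils, 3 were tested. COL22A1, a FACIT of tissue junctions such as muscle to tendon, had the highest estimate of the collagens at 1.24 ± 0.52 (edgeR adjusted p = 0.227). It rests on A375, where it had 180 counts with IFN-gamma and 64 untreated, since A498 had 13 counts with IFN-gamma and 9 untreated and the other lines 1 count or none. COL9A3, a cartilage type IX chain, was at 126 CPM in A375 with IFN-gamma and 164 CPM untreated, and between 2.65 and 4.58 CPM in the other 6 libraries. COL12A1, known from tendon and ligament, differed in direction between lines, with 6.95, 0.499, 10.4 and 5.58 CPM with IFN-gamma and 5.07, 1.54, 8.70 and 2.32 CPM untreated in 549, A375, A498 and H1703. COL19A1, a FACIT of basement membrane zones, was measured in A375 only, at 1326 counts with IFN-gamma and 545 untreated, or 2.76-fold (95% exact interval 2.50 to 3.06) the untreated level. COL16A1 had 111 counts with IFN-gamma and 91 untreated in A375 and 19 counts or fewer elsewhere, and COL9A2 had 22 counts with IFN-gamma and 43 untreated in A375 and 5 or fewer elsewhere.

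Outside these classes, COL7A1, the collagen of the anchoring fibrils that fasten epithelium to the matrix below, had 72.96, 6.23, 43.7 and 1.45 CPM in IFN-gamma-treated 549, A375, A498 and H1703 cells, against 27.98, 5.60, 15.04 and 2.70 CPM in the untreated cells. It was higher with IFN-gamma in 549 and A498, by 2.61-fold (95% exact interval 2.20 to 3.10) and 2.90-fold (95% exact interval 2.32 to 3.66), nearly level in A375 and lower in H1703. The fitted difference was 0.76 ± 0.37 (edgeR adjusted p = 0.281). The promoter windows of 3 members, COL7A1, COL11A2 and ITGAE, held the letters of a gamma-interferon activation site (GAS), TTCNNNGAA (the same pattern on both strands). This motif is known from interferon-gamma response genes. The fitted differences of COL11A2 and ITGAE were 0.51 ± 0.37 and -0.11 ± 0.21, and a link between the letters and a response was not tested. Of the 3 windows, that of COL7A1 is shown. The window is chr3:48595280-48595579 on GRCh38.p14, read on the - strand, and 2 GAS matches stand side by side in it in capitals, the first beginning 162 bases before the start site.
COL7A1: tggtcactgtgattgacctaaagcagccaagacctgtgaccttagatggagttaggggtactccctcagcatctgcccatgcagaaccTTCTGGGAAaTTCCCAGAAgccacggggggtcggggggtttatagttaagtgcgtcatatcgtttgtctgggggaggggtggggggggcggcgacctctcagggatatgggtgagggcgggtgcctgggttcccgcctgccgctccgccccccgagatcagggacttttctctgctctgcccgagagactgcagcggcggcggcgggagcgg
The same letters occur in 7.66% of all 35116 RefSeq promoter windows and in 3 of the 67 member windows (4.48%). The core of the interferon-stimulated response element, searched as GAAANNGAA on both strands, occurs in 8.11% of all windows and in 4 of the 67, those of COL17A1, COL27A1, ITGA10 and ITGB5. Whether any factor binds there was not tested.

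Among the remaining collagens, COL18A1, the source of endostatin, was measured in every line, with 43.9, 27.4, 111 and 31.8 CPM with IFN-gamma and 51.3, 22.7, 113 and 42.9 CPM untreated in 549, A375, A498 and H1703 and a fitted difference of -0.10 ± 0.18. Its relative COL15A1 was measured in A375 alone, at 709 counts with IFN-gamma and 660 untreated. COL8A1, a short-chain collagen of vessel walls and the cornea, had 300 counts with IFN-gamma and 97 untreated in A498, a ratio of 2.78-fold (95% exact interval 2.21 to 3.54). In A375 it had 40 counts with IFN-gamma and 60 untreated. COL26A1, a little-studied collagen, had 10 counts with IFN-gamma and 59 untreated in 549 and 36 counts with IFN-gamma and 77 untreated in H1703, and the estimate was -1.21 ± 0.68 (edgeR adjusted p = 0.342). The transmembrane COL13A1 had 99 counts with IFN-gamma and 62 untreated in A375.

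The collagen-binding integrin subunits ITGA1, ITGA2, ITGA10 and ITGA11 all pair with ITGB1. ITGA2, the receptor subunit for fibrillar collagen on platelets and epithelium, had 47.1, 51.4, 54.95 and 5.58 CPM in IFN-gamma-treated 549, A375, A498 and H1703 cells, against 45.96, 36.1, 10.3 and 2.96 CPM in the untreated cells. It was higher in all 4 lines, by as little as 0.03 on the log2 scale in 549 and by 5.32-fold (95% exact interval 4.12 to 6.96) in A498, with a fitted difference of 0.93 ± 0.36 (edgeR adjusted p = 0.194). The other members of the group were lower in A375. ITGA1, which prefers type IV collagen, had 144 counts with IFN-gamma and 534 untreated there, ITGA10, a cartilage collagen receptor subunit, 187 counts with IFN-gamma and 616 untreated, and ITGA11, known from fibroblasts, 12 counts with IFN-gamma and 37 untreated. In A498, ITGA1 had 286 counts with IFN-gamma and 242 untreated, so the difference in A375 was not seen there; the test of A375 against the other lines gave ITGA1 an edgeR adjusted p of 0.342. In A375 the summed level of the 5 fibroblast markers was lower as well, at 28.1 CPM with IFN-gamma and 103 CPM untreated, as were the summed melanocyte markers, at 646 CPM with IFN-gamma and 1014 CPM untreated, although SOX10 among them was higher. Their part in these differences was not tested.

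Among the laminin-binding subunits, ITGA3 had the smallest p of all 36 members. It had 424, 173, 1082 and 130.1 CPM in IFN-gamma-treated 549, A375, A498 and H1703 cells, against 132, 74.9, 357 and 109 CPM in the untreated cells. The gene was higher with IFN-gamma in each line, by 3.22-fold (95% exact interval 2.99 to 3.48) in 549 and 3.03-fold (95% exact interval 2.89 to 3.17) in A498, by 2.31-fold (95% exact interval 2.11 to 2.54) in A375, and least in H1703, by 1.19-fold (95% exact interval 1.09 to 1.30). The fitted log2 fold change was 1.19 ± 0.25, and the adjusted p of edgeR's quasi-likelihood test was 0.0577, which misses the threshold of 0.05. It passed with DESeq2 (adjusted p = 0.00103), with limma-voom (0.0325), without the filter on low counts (0.00572) and without H1703 (0.0179). It missed the threshold with the other scalings (0.0581 to 0.0608), with CPM 1 in 4 libraries (0.0541), with robust empirical Bayes (0.0542), with the row of most counts per symbol (0.0576) and on the authors' log2 values with limma (0.0539). The adjusted p was 0.223 without 549, 0.116 without A375, 0.230 without A498 and 1.00 with no term for the line. ITGA6, which pairs with ITGB1 or with ITGB4 in hemidesmosomes, had 72.01, 204, 45.7 and 60.6 CPM with IFN-gamma and 86.7, 66.8, 31.1 and 54.96 CPM untreated in 549, A375, A498 and H1703, higher in A375 by 3.05-fold (95% exact interval 2.78 to 3.35) and lower in 549. ITGA7, a laminin receptor subunit best known from muscle, had the lowest estimate of all members, -1.47 ± 0.46 (edgeR adjusted p = 0.129). Its counts were small, with 1.74, 1.75, 2.26 and 0.781 CPM with IFN-gamma and 11.9, 2.31, 7.23 and 1.29 CPM untreated in 549, A375, A498 and H1703, and lower with IFN-gamma in all 4 lines. The beta subunit of hemidesmosomes, ITGB4, was counted mainly in 549, at 116 counts with IFN-gamma and 210 untreated.

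**Figure D3:**
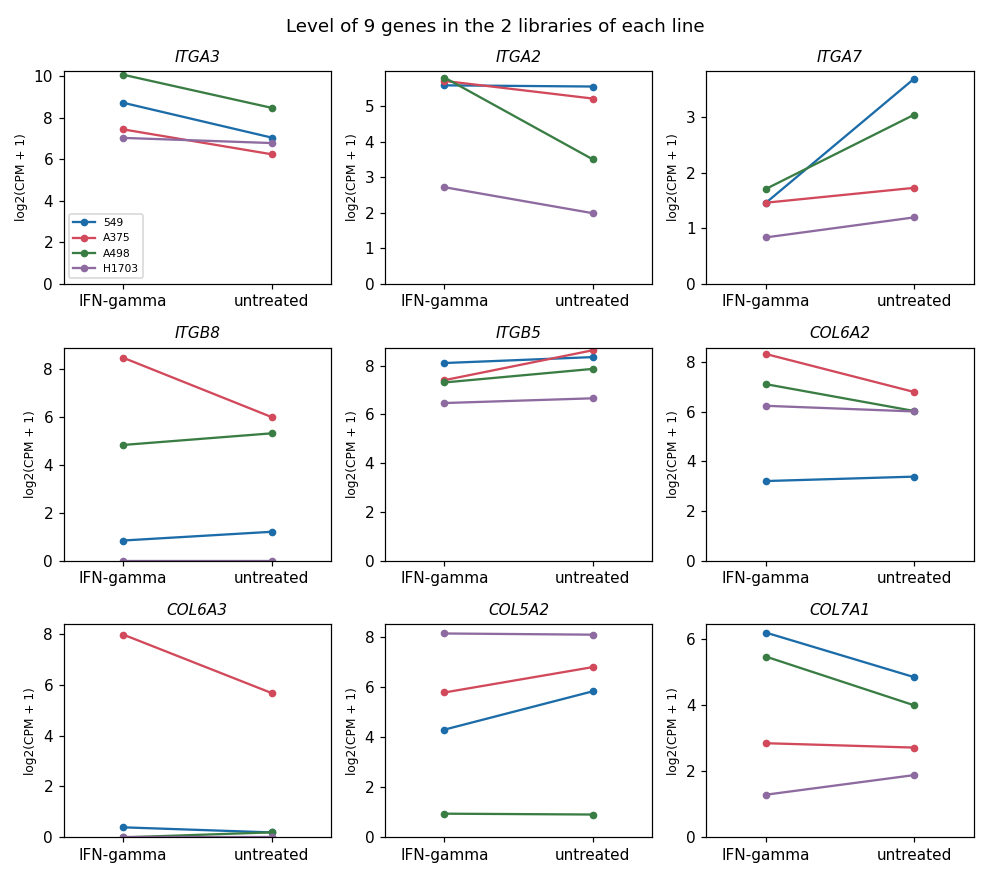
Level of 9 members as log2(CPM + 1) in the 4 lines, with IFN-gamma on the left of each panel and untreated on the right, and 1 line of colour per cell line (1 library per point). ITGA3 and ITGA2 are higher on the left in every line and ITGA7 and ITGB5 lower. COL6A3 lies well above 0 in A375 alone. ITGB8 is higher on the left in A375 alone, although A498 also has it at 27.6 CPM with IFN-gamma and 39.1 CPM untreated.

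The subunits that bind the RGD motif of fibronectin and vitronectin were tested for ITGA5 and ITGAV. ITGA5, the fibronectin receptor subunit, had 11.7, 405, 62.8 and 17.6 CPM with IFN-gamma and 18.1, 188, 31.7 and 14.9 CPM untreated in 549, A375, A498 and H1703, with an estimate of 0.47 ± 0.29. It was higher in A375 by 2.15-fold (95% exact interval 2.03 to 2.28) and in A498 by 1.98-fold (95% exact interval 1.68 to 2.34), and lower in 549. ITGAV, the shared alpha partner of ITGB3, ITGB5, ITGB6 and ITGB8, was measured at similar levels in all lines, 59.7, 77.3, 86.9 and 63.95 CPM with IFN-gamma and 76.99, 81.1, 143 and 71.05 CPM untreated, and its estimate was -0.33 ± 0.18 (edgeR adjusted p = 0.319). ITGA8, a receptor subunit for nephronectin, had 35 counts with IFN-gamma and 146 untreated in A375 and 4 counts or fewer elsewhere. The platelet subunit ITGA2B had 5 counts with IFN-gamma and 17 untreated in 549.

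The beta subunits differed from each other in pattern. ITGB1, the partner of most alpha subunits, was high in all libraries and nearly level, with 1082, 297, 321 and 484 CPM with IFN-gamma and 931, 229.6, 387 and 522 CPM untreated in 549, A375, A498 and H1703 and an estimate of 0.05 ± 0.18. ITGB5 had 274, 168, 157 and 87.2 CPM in IFN-gamma-treated 549, A375, A498 and H1703 cells, against 325, 395, 232 and 99.9 CPM in the untreated cells, lower with IFN-gamma in all 4 lines. The fitted log2 fold change of ITGB5 was -0.56 ± 0.21 (edgeR adjusted p = 0.179), and the lowest ratio was that of A375, 0.426-fold (95% exact interval 0.399 to 0.453). ITGB3, the vitronectin receptor beta subunit, was measured in A375 and A498 only, at 2205 counts with IFN-gamma and 1772 untreated in A375 and 671 counts with IFN-gamma and 299 untreated in A498, and its estimate was 0.78 ± 0.33 (edgeR adjusted p = 0.220). ITGB8, which with ITGAV releases active TGF-beta from its latent complex, had the highest ratio in A375 of any member with at least 100 counts there: 2871 counts with IFN-gamma and 576 untreated, or 5.66-fold (95% exact interval 5.17 to 6.20). In A498 it had 208 counts with IFN-gamma and 265 untreated. ITGB6, an epithelial subunit with the same partner and ligand, had 122 counts with IFN-gamma and 65 untreated in A498, 9 counts with IFN-gamma and 22 untreated in 549 and 1 count or none in A375 and H1703.

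Among the leukocyte integrin subunits, ITGAL and ITGAD were below 1 CPM in every library, and ITGB2, the beta subunit they share with ITGAM and ITGAX, had 108 counts with IFN-gamma and 13 untreated in A498, or 7.48-fold (95% exact interval 4.19 to 14.5) the untreated level. In A498, ITGAX, a subunit of myeloid cells, had 91 counts with IFN-gamma and 50 untreated, and ITGAM had 13 counts with IFN-gamma and 5 untreated. In the same line the 7 leukocyte markers summed to 98.9 CPM with IFN-gamma and 26.1 CPM untreated, almost all of it CD68, a lysosomal protein, with 736 counts with IFN-gamma and 168 untreated. The pan-leukocyte marker PTPRC was at 0 in treated A498 and at 4 counts in untreated A498. ITGA4, the receptor subunit for VCAM1 and fibronectin, had 0, 40.3, 22.96 and 3.01 CPM with IFN-gamma and 0.290, 86.96, 26.2 and 5.02 CPM untreated in 549, A375, A498 and H1703, lower with IFN-gamma in each although 549 held only 0 counts with IFN-gamma and 2 untreated, with an estimate of -0.73 ± 0.29 (edgeR adjusted p = 0.194). ITGA9, which binds tenascin-C, had 16 counts with IFN-gamma and 84 untreated in A375, or 0.216-fold (95% exact interval 0.118 to 0.372). ITGAE, the subunit of T cells that bind E-cadherin, was measured evenly, between 14.96 and 38.8 CPM in the 8 libraries, while CD3E was at 0.

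Line by line, differences of 2-fold or more were counted without a test, since each line has 1 library per arm. Among the 36 members tested, 549 had 3 higher and 10 lower (8.33% and 27.8%), against 6.81% higher and 9.16% lower among all genes tested. A375 had 7 higher and 8 lower (19.4% and 22.2%), against 10.5% and 10.1%. A498 had 7 higher and 3 lower (19.4% and 8.33%), against 10.5% and 6.78%. H1703 had 4 higher and 1 lower (11.1% and 2.78%), against 3.3% and 1.53%. Many of these ratios rest on few counts, so the count was repeated over genes with 100 counts or more in the line, a limit chosen after seeing the data. In 549, 1 of 14 collagens and 1 of 10 integrins were then higher (all genes 5.94%) and 4 collagens and 0 integrins lower (6.88%). In A375, 5 of 19 collagens and 4 of 15 integrins were higher (10.1%) and 1 collagen and 6 integrins lower (8.96%). In A498, 3 of 12 collagens and 4 of 15 integrins were higher (10.1%) and 1 collagen and 0 integrins lower (4.81%). In H1703, 0 of 7 collagens and 0 of 7 integrins were higher (2.14%) and 1 collagen lower (0.248%). The collagens lower in 549 were COL1A1, COL5A2, COL6A1 and COL11A1, and the integrins lower in A375 were ITGA1, ITGA4, ITGA8, ITGA9, ITGA10 and ITGB5.

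**Figure D4:**
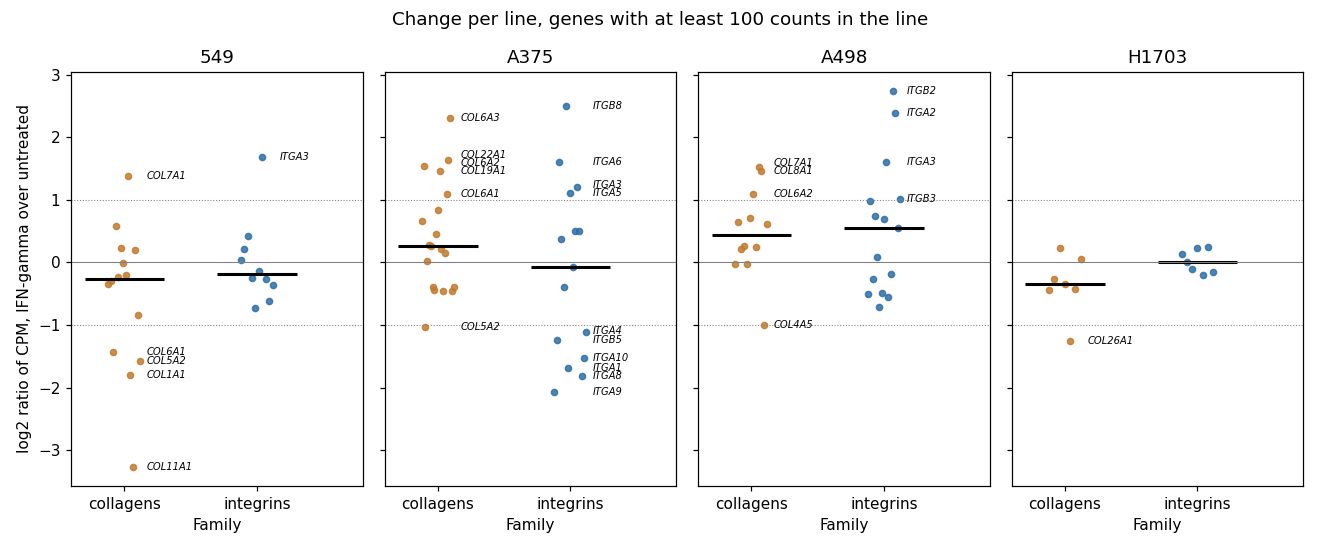
Log2 ratio of CPM, IFN-gamma over untreated, for collagens and integrins with at least 100 counts in the line, 1 panel per line and 1 point per gene, with 1 library per arm. Black bars are medians, dotted lines mark 2-fold, and genes at or past 2-fold are named. In A375 the integrins split into 4 higher and 6 lower, and in H1703 all integrins lie between the dotted lines.

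Whether a line responded unlike the other 3 was tested as an interaction in the same fit. No gene was called in any of the 4 tests (0% of 13457 each, edgeR's quasi-likelihood test with Benjamini-Hochberg adjustment), in which 1 line is 1 pair of libraries assumed to vary like the others. At an unadjusted p under 0.05 there were 3 of 36 members for 549 (all genes 3.6%), 6 for A375 (8.57%), 4 for A498 (4.35%) and 5 for H1703 (3.11%). The lowest adjusted p of a member was that of ITGB8 in A375, at 0.179. DESeq2 called ITGB8 there, with a difference in log2 fold change of 3.06 from the other lines (adjusted p = 0.00149), among 0.787% of the genes it tested, and limma-voom called no member.

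Summed over each family, collagen genes took 428, 2074, 1545 and 465 CPM in IFN-gamma-treated 549, A375, A498 and H1703 cells, against 508, 1478, 1087 and 471 CPM in the untreated cells. Integrin genes took 2052, 2119, 2067 and 887 CPM with IFN-gamma, against 1716, 1599.9, 1407 and 915 CPM untreated in those lines. Both sums were higher with IFN-gamma in A375 and A498 and lower in H1703, and in 549 the integrin sum was higher and the collagen sum lower. With 4 pairs, an exact paired permutation test cannot give a two-sided p under 0.125, so none was run on the sums. Most counts of the integrin sums of 549, A498 and H1703, treated and untreated, came from ITGB1 and ITGA3 together, but not those of A375. Many counts of the A375 collagen sums came from COL4A2 and the type VI chains.

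Genes that make, break down or bind collagens and integrins were set beside the members. Among all 13457 genes tested, 1.92% were called, 214 higher and 44 lower, and no list was tested against that share. Of 28 genes of collagen making in the table, 22 were tested and 0 passed, with a median log2 fold change of -0.05. The smallest p there belonged to the prolyl 3-hydroxylases P3H1 (-0.61 ± 0.23, edgeR adjusted p = 0.175) and P3H3 (-0.66 ± 0.26, 0.196) and to the lysyl hydroxylase PLOD3 (0.41 ± 0.17, 0.222). Of 23 genes of collagen breakdown, 13 were tested, 2 rose and 1 fell. CTSS, a cysteine protease of lysosomes that also trims antigens, rose to 55.3, 289, 535 and 15.2 CPM with IFN-gamma in 549, A375, A498 and H1703, against 11.5, 60.6, 41.1 and 2.06 CPM untreated (2.77 ± 0.28, edgeR adjusted p = 0.00134). PLAT, the tissue plasminogen activator, rose to 3.63, 2412, 10.1 and 0.558 CPM with IFN-gamma in those lines, against 1.01, 446, 3.69 and 0.386 CPM untreated (1.89 ± 0.29, edgeR adjusted p = 0.0153). It had 23 counts with IFN-gamma and 7 untreated in 549, and 5 and 3 in H1703, near the counting limit. MMP15, a membrane-bound metalloproteinase, fell to 3.95, 7.73, 1.59 and 2.12 CPM with IFN-gamma in 549, A375, A498 and H1703, against 11.02, 38.2, 4.13 and 4.63 CPM untreated (-1.63 ± 0.30, edgeR adjusted p = 0.0325). The calls of PLAT and MMP15 did not hold without 549 (adjusted p = 0.0675 and 0.116), without A375 (0.208 and 0.150) or without A498 (0.0537 and 0.0881), and that of PLAT not on the authors' log2 values with limma (0.0755). CTSL, a related lysosomal protease, had 0.96 ± 0.20 (edgeR adjusted p = 0.0520), the protease CTSK -0.97 ± 0.38 (0.192) and the inhibitor TIMP1 0.65 ± 0.45 (0.429).

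Of 41 integrin ligands in the table, 26 were tested, 1 rose and 0 fell. That gene was ICAM1, the ligand of ITGAL with ITGB2, called higher over the 4 lines (2.17 ± 0.40, edgeR adjusted p = 0.0329). It had 1.90, 419, 302 and 0.112 CPM with IFN-gamma in 549, A375, A498 and H1703, against 0.725, 128, 34.9 and 0.257 CPM untreated. In H1703 it was at the counting limit and not higher with IFN-gamma. Its call did not hold without 549 (adjusted p = 0.0882), without A498 (0.194) or on the authors' log2 values with limma (0.192). Tenascin-C, TNC, had 1.61 ± 0.36 (edgeR adjusted p = 0.0771), CYR61, a matrix protein that integrins bind, 0.78 ± 0.20 (0.0897), and nidogen, NID1, a basement membrane linker, -0.65 ± 0.17 (0.0926). Among 26 adaptor and signalling genes, 23 were tested and 0 passed; the focal adhesion protein ZYX had 0.75 ± 0.20 (edgeR adjusted p = 0.0994), TNS2 -0.66 ± 0.20 (0.119) and the kinase PTK2B 0.91 ± 0.30 (0.135). Of 6 other collagen receptors, 3 were tested and 0 passed, OSCAR with 0.52 ± 0.57, DDR1 with 0.05 ± 0.25 and ADGRG1 with an estimate within its standard error of 0.24 of no difference. Of 18 genes of the TGF-beta axis, the main inducer of collagen genes, 17 were tested and 0 passed. TGFBR3, a co-receptor, had -1.06 ± 0.34 (edgeR adjusted p = 0.138) and LTBP4, which binds latent TGF-beta, 0.45 ± 0.22 (0.282). DESeq2 also called CTSL, ZYX, TNC, CYR61 and NID1. The median log2 fold change was -0.02 for breakdown, -0.01 for ligands, 0.08 for adaptors, 0.05 for other receptors and -0.04 for the TGF-beta axis.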

How the data were processed

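Per the labels, RNA was taken up in TRIzol. They list 2 library kits, SMARTer stranded after poly(A) selection and QuantSeq 3' forward, and do not say which was used. Per the file headers, the deposited table gives each gene's raw counts and, in further columns, the authors' log2 normalized values. Bowtie2, edgeR and hg19 are named in the submitters' processing notes. The sources used here do not give versions, annotation, counter or strand use, so genes with overlapping, antisense or near-identical partners are uncertain. Of the table's 25737 rows, 286 symbols with several rows were summed (COL11A2 has 7). No column of other samples was present (0). Counts were the main input, and the authors' log2 values served 1 alternative.

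Low genes were removed with filterByExpr (group: treatment; minimum count 10, total 15), and counts were scaled by TMM and tested by edgeR's quasi-likelihood test (edgeR 4.0.16, R 4.3.3) with cell line and treatment as terms, 3 residual degrees of freedom and Benjamini-Hochberg adjustment at 0.05. A fold change ± its SE is on the log2 scale. The line pairs the libraries by design: deviations from the arm means correlated at 0.847 to 0.903 within a line and at most at -0.09 between lines. Subtracting the mean of the 4 lines by itself pushes correlations between lines below 0, so their sign is no evidence for the pairing. Single-line ratios use a prior count of 2, and their intervals are exact 95% binomial ones on counts. Scripts were tested on simulated data. Members, lists and the naming rule were chosen with earlier results of these data known. The rule names, per family, called members, the 6 smallest p values, the 6 highest CPM of each untreated line, members expressed in 1 line alone and log2 ratios past 2 at 50 counts or more. For each related list it names called genes and the 3 others of smallest p; 1 gene that it takes is not reported here. Other genes with values were chosen after their values were seen. Alternatives were RLE, upper quartile and no scaling factors, other filters, DESeq2 1.42.0, limma-voom (limma 3.58.1), robust empirical Bayes, no line term, the row with the most counts per symbol, each line left out, the authors' log2 values with limma, and other CPM thresholds and prior counts.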

Additional observations from a re-analysis of the deposited data

Results flagged for a closer look

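Among 40 groups of 4 samples screened, chance alone would give about 1 in 20 a value this far out. The screen found 1. The summed integrin level of IFN-gamma-treated H1703 was 886.8 CPM, while the sums of treated 549, A375 and A498 lay between 2052 and 2119 CPM, so the H1703 library stood far below 3 close values. H1703 also had the fewest integrin genes expressed when untreated, 12 of 27.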

How the results depend on the processing

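Depth and 1 library per line and arm limit every value. Without the pairing by cell line (no replicate block), 0 genes were called, 0 higher and 0 lower. Without the filter on low counts 884 genes were called (619 higher, 265 lower), or 4.2% of those tested, among them 2 collagens (COL6A3 and COL11A1) and 1 integrin (ITGA3). In that setting 30 of 44 collagens differed between lines. The share of all genes that did so without the filter is not given here, so whether 30 is unusual was not tested. DESeq2 called 1036 genes (631 higher, 405 lower) with 1 integrin, and 1 member that responded unequally in A375 (ITGB8). Limma-voom called 82 lower and 1 integrin, and the authors' log2 values with limma 26 lower. Leaving out each line gave 106 to 455 genes called, 102 to 315 higher and 3 to 140 lower, 0 to 1 integrin members and a collagen median between -0.20 and 0.26. At 5 CPM, 8 collagens were expressed in untreated H1703 and 11 integrins in untreated 549. With a prior count of 5, members past 2-fold were 1 lower in A498 and 2 higher in H1703; with 100 counts in the line, chosen after seeing the data, 4 were lower in 549, 1 was lower in A498 and 0 were higher in H1703. Estimates were recomputed for 58 genes, among them all 36 members tested, and 15, of size 0.51 or less, changed sign under at least 1 alternative. By upper quartile DDR1 was -0.017, ITGB1 -0.015 and ITGB6 -0.0071, and by library size DDR1 was -0.024, COL6A1 -0.0048 and ITGB1 -0.022. Without the filter ADGRG1 was 0.018 and COL4A3 0.016, and ADGRG1 was 0.014 with CPM 1 in 4 libraries. COL4A3 was 0.16 by DESeq2, and by limma-voom ADGRG1 was 0.14 and COL4A1 0.036. Without the block DDR1 was -0.089, ADGRG1 0.40, COL4A1 0.043, COL5A1 0.070 and ITGAX 0.13. On the authors' log2 values COL4A3 was 0.41 and COL6A1 -0.025. With each line left out the range was -0.32 to 0.32 for ADGRG1, -0.88 to 0.30 for COL1A1, -0.68 to 0.52 for COL4A3, -0.24 to 0.25 for DDR1, -0.34 to 0.14 for COL4A1, -0.31 to 0.51 for COL6A1, -0.26 to 0.040 for COL9A3, -0.64 to 0.10 for ITGA1, -0.056 to 0.16 for ITGB1, -0.28 to 0.010 for ITGAE, -0.070 to 0.62 for COL12A1, -0.070 to 0.37 for COL27A1 and -0.029 to 0.10 for ITGB6. Library size alone moved the median of all genes to -0.09. The causes were not tested. The other 43 of these genes kept their direction under these alternatives; 14 of their values lost a call and 20 gained one. Named genes outside the 58 were not recomputed one by one.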
